A study of Mus musculus with 6 samples.

Results

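The Il1b+ neutrophils of c-Kit-enriched mouse bone marrow were cells with few transcripts that carried late neutrophil genes (Cxcr2, Csf3r) together with Wfdc17, Steap4, Stfa2l1 and Cstdc4. They made up 1350 of 32762 filtered cells (4.12%), with 241, 479 and 630 cells in pools 1, 2 and 3. A filtered cell held 500 to 7500 detected genes and at most 15% mitochondrial counts. The cells were chosen by measured values, and a cell entered the class when it held at least 2 UMIs (unique molecular identifiers, counts of single captured transcripts) of Il1b and at least 20 UMIs of S100a8 and S100a9 added together. It also had to hold under 20 UMIs of Mpo and Elane per 10000, which mark earlier granulocytes, and none of F13a1 or C1qa, which mark monocytes and macrophages. Of the filtered cells 2045 held at least 2 Il1b UMIs, 1931 of these passed the S100 limit, 1403 the Mpo and Elane limit, 1364 the F13a1 limit and 1350 the C1qa limit. Levels of these 7 genes inside the class follow from the choice of cells, so they are given as a description with no test. Without the Il1b limit the same gate held 8575 neutrophils, and the Il1b+ cells were 15.7% of them. The comparison classes were the 6515 gated neutrophils with no Il1b UMI, called Il1b-0 neutrophils, and the 710 with 1 Il1b UMI.

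The study concerned the effect of a growing mammary tumor, and of an inhibitor of pyrimidine synthesis given to its bearers, on marrow progenitors. All mice were BALB/c females harvested at 10 weeks of age, and their marrow was enriched on magnetic beads for cells that carry c-Kit, the receptor for stem cell factor. The 3 groups were non-tumor-bearing mice (NTB), mice that carried 4T1, a mouse mammary carcinoma cell line, in the mammary gland and received vehicle (Veh), and 4T1 bearers that received brequinar (BRQ), which inhibits dihydroorotate dehydrogenase. Each group had 3 mice, and each of the 3 droplet pools held 1 mouse of every group, told apart by hashtag antibodies. Because of the beads, shares refer to the enriched fraction and not to marrow as a whole.

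The group of a cell rested on the hashtag it carried, so the barcodes that the calls read are shown, with the whole barcode in capitals.
B0301, NTB mice: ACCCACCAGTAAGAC
B0302, Veh mice: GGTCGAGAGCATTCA
B0303, BRQ mice: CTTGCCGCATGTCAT
Of the 1350 Il1b+ neutrophils 553 had exactly 1 tag above background and were assigned to a mouse, 663 had no call and 134 had more than 1 tag. The assigned share was 74.7%, 23.6% and 41.3% in pools 1, 2 and 3. In assigned Il1b+ neutrophils the highest tag, scaled to its pool, exceeded the next by a median factor of 1.57 to 3.19 in the 9 mice. Between pools 43, 48 and 38 cell barcodes were shared, and none of them was an Il1b+ neutrophil in both. Total gene UMIs were 128035770, 100700982 and 135564079 in pools 1, 2 and 3.

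Interleukin-1 beta, the product of Il1b, is a cytokine made as a precursor that is cleaved by caspases of inflammasomes such as NLRP3. It signals through the receptor IL1R1 with IL1RAP as partner, while IL1R2 is a decoy receptor and IL1RN an antagonist. Neutrophils mature from Mpo- and Elane-expressing promyelocytes through stages rich in Ltf, Camp and Ngp that fill the specific granules. The latest stages stop dividing, shut down granule genes and take up Cxcr2 and Csf3r, the receptors for neutrophil chemokines and granulocyte colony-stimulating factor, and mature neutrophils contain little RNA. In tumor-bearing mice, neutrophils with suppressive activity are described as granulocytic myeloid-derived suppressor cells, for which Il1b, Wfdc17, Cd84 and Jaml have served as transcript markers.

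Il1b+ neutrophils were the shallowest of the classes compared. Their median was 1581 UMIs and 792 genes per cell, against 2051 UMIs in neutrophils with 1 Il1b UMI, 5554 UMIs and 1625 genes in Il1b-0 neutrophils and 9464 UMIs and 2688 genes over all filtered cells. The order was the same in each pool, with medians of 1354, 1526 and 1729 UMIs in Il1b+ cells of pools 1, 2 and 3 against 6234, 5009 and 5453 in Il1b-0 cells. At the edges of the rule, 125 Il1b+ neutrophils held fewer than 600 genes and 32 had 20 to 25 S100a8 and S100a9 UMIs. By Il1b count, 380 cells held 2 UMIs, 333 held 3, 331 held 4 or 5 and 306 held 6 or more, up to 24.

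**Figure D1:**
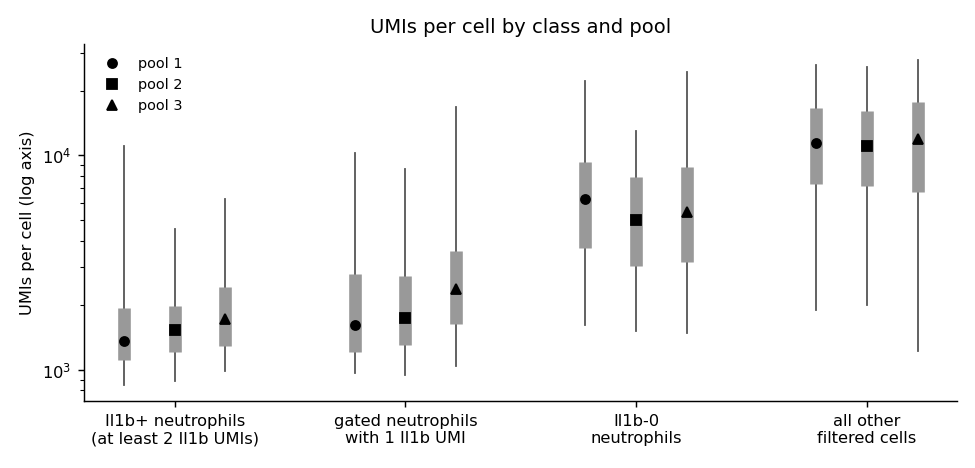
UMIs per cell on a log axis for the classes of cells in pools 1 to 3. Symbols by pool are medians, thick bars span the quartiles and thin lines run from the 5th to the 95th percentile. Il1b+ neutrophils have the lowest medians in every pool, 1354, 1526 and 1729 UMIs.

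The name low-RNA held for most of the class but not for all of it. Of the Il1b+ neutrophils 95 held more than 5000 UMIs, and together they supplied 36.9% of the UMIs of the class. Scrublet, a caller of droplets with more than 1 cell, marked 65 of these 95 (68.4%) and 68 Il1b+ neutrophils in all, and marked cells were kept unless stated. In these deep cells the 8 megakaryocyte genes summed to 24.1, 38 and 32.6 UMIs per 10000 in pools 1, 2 and 3, and the 12 erythroid genes to 19.5, 23.1 and 18.5. In the 1255 Il1b+ neutrophils with at most 5000 UMIs the same sums were 5.54, 5.23 and 5.58 for megakaryocyte genes and 3.29, 1.09 and 1.202 for erythroid genes. Pf4, platelet factor 4, stood at 1805, 3095 and 2353 CPM (UMIs of a gene per 1000000 UMIs) in the deep cells and at 38, 6.65 and 18.4 CPM in the others. The medians per cell ran the other way for megakaryocyte genes, at 1.96, 2.59 and 3.14 UMIs per 10000 in the deep cells against 3.61, 4.72 and 5.096 in the others, so some of the deep cells carried the higher sums. For erythroid genes the medians were 1.15, 2.19 and 0.471 against 0, 0 and 0.

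Marker genes of other cell types were detected in the class, at low sums. Per 10000 UMIs the 13 monocyte genes summed to 4.13, 2.42 and 3.65 in pools 1, 2 and 3, against 3.07, 3.25 and 3.25 in Il1b-0 neutrophils. The 12 macrophage genes summed to 3.75, 6.22 and 5.797 against 1.53, 1.68 and 1.79, and the 10 stem and progenitor genes to 6.02, 5.64 and 4.95 against 2.72, 1.67 and 3.96. The stem and progenitor genes summed to 9.06, 12.03 and 9.10 in the deep cells and to 2.25, 3.14 and 2.76 in the others. These last sums lay below Il1b-0 cells in pools 1 and 3, but above Il1b-0 cells with at least 5% S100a8 and S100a9 counts (1.46, 1.29 and 1.76). The 11 B cell genes summed to 1.19, 2.34 and 1.89 against 9.44, 4.49 and 22.3, lower in Il1b+ than in Il1b-0 neutrophils in each pool. This order turned in pool 2 against Il1b-0 cells with at least 5% S100a8 and S100a9 counts, where the sums were 9.14, 0.814 and 18.3. Genes of T and NK cells stayed at or below 0.961 and those of basophils, mast cells and eosinophils at or below 1.19 per 10000. At least 1 UMI was found in the class for 12 of the 13 monocyte, 11 of the 12 macrophage, 9 of the 11 B cell, 6 of the 11 T and NK cell and 7 of the 11 dendritic cell genes. A total of at least 20 UMIs was reached by 9 monocyte, 3 macrophage, 5 B cell, 2 T and NK cell and 5 dendritic cell genes. The members of these lists with no UMI in any Il1b+ neutrophil were Fn1 for monocytes, Mertk for macrophages, Ms4a1 and Pax5 for B cells, Cd3e, Gzma, Ccl5, Cd8a and Ncr1 for T and NK cells and Siglech, Cd209a, Ccr9 and Cox6a2 for dendritic cells. Csf1r, the receptor for macrophage colony-stimulating factor, stood at 77.7, 104 and 106 CPM in Il1b+ against 4.34, 8.02 and 8.08 CPM in Il1b-0 neutrophils. Kit, the gene of the receptor that the beads select for, stood at 81.98, 205 and 167 CPM in Il1b+ and 39.9, 29.8 and 54.3 CPM in Il1b-0 neutrophils.

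To compare cells at equal depth each cell was thinned to 700 UMIs, and the share of cells that kept at least 1 UMI of a gene was taken. Wfdc17, a small secreted protein of the whey acidic protein family, was then found in 78.8%, 92.9% and 93.3% of Il1b+ neutrophils in pools 1, 2 and 3 and in 8.73%, 16.98% and 25.5% of Il1b-0 neutrophils. Without thinning the Wfdc17 shares were 91.7%, 95.8% and 98.4% against 14.2%, 23.5% and 39.3%. Steap4, a metalloreductase, was found in 44.8%, 48.02% and 50.8% against 3.32%, 5.88% and 8.79% at equal depth. The stefin genes Stfa2l1 and Cstdc4, which encode inhibitors of cysteine proteases, separated the classes in the same direction. Stfa2l1 was found in 35.7%, 42.6% and 42.9% of Il1b+ and 4.67%, 7.81% and 10.4% of Il1b-0 neutrophils, and Cstdc4 in 27.8%, 32.99% and 33.5% and 5.24%, 8.67% and 9.77%. Neutrophils with 1 Il1b UMI, just outside the rule, held Wfdc17 in 76.9%, 82.04% and 80.8%, Steap4 in 33.1%, 39.3% and 34.6% and Cstdc4 in 34.4%, 40.8% and 31.1%. In those cells Wfdc17 and Steap4 were below the Il1b+ values and Cstdc4 was at or above them in pools 1 and 2.

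Genes of mature neutrophils were divided. Cxcr2 kept a UMI in 76.8%, 70.98% and 71.6% of Il1b+ against 11.4%, 18.9% and 21% of Il1b-0 neutrophils, and Csf3r in 75.5%, 84.6% and 80.95% against 13.01%, 19.9% and 21.3%. Retnlg, a resistin-like protein of neutrophils, was less separated, with 52.7%, 63.5% and 65.2% against 26.8%, 39.6% and 38.1%, and neutrophils with 1 Il1b UMI held it more often, in 70.6%, 77.7% and 74.1%. When both classes were limited to at most 5000 UMIs, the mean log2 ratio of CPM + 5 was 0.04 for Retnlg and 0.27 for Mmp9, against 1.88 for Cxcr2 and 2.27 for Csf3r. Ly6g, the standard surface marker of mouse neutrophils, ran the other way, with 327, 224 and 401 CPM in Il1b+ against 945, 1190 and 759 CPM in Il1b-0 neutrophils, a mean log2 ratio of -1.61 and of -2.68 at most 5000 UMIs. The neutrophil surface protein gene Cd177 was lower too (-1.91 and -2.68), as was Ifitm6 (-1.39 and -2.44), while Mmp8, a neutrophil collagenase, turned from 0.50 to -1.02. The specific granule genes were lower as well. Camp, the precursor of the cathelicidin peptide, kept a UMI in 31.5%, 19% and 20.3% of Il1b+ against 85.7%, 82.6% and 70.96% of Il1b-0 neutrophils. Ltf, which encodes lactoferrin, kept a UMI in 14.9%, 9.19% and 9.84% against 80.5%, 78.4% and 65.7%.

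Summed by pool and scaled to CPM, 647 of 6168 genes (10.5%) were more than 2-fold higher in Il1b+ than in Il1b-0 neutrophils in all 3 pools, and 85 (1.38%) were more than 2-fold lower, on the log2(CPM + 5) scale. With limits on depth and S100 share, which left out Il1b+ cells above 5000 UMIs and Il1b-0 cells with under 5% S100a8 and S100a9 counts, 933 genes (15.1%) were higher and 596 (9.66%) lower, so the excess of higher genes was much smaller there. Il1b divides the classes within the same cells, so these counts are a description with no test. The classes also differed in their mix of mice. With each tag scaled to its pool, the NTB tag was the highest in 8.71%, 4.59% and 5.71% of Il1b+ and 59.3%, 46.2% and 55.2% of Il1b-0 neutrophils. All shares, ratios and list counts that compare these classes over whole pools therefore also carry differences between the groups. Among the 15 genes with the largest mean ratio were Igfbp6, a binding protein of insulin-like growth factors, Saa3, an acute-phase serum amyloid, Pla2g7, which breaks down platelet-activating factor, and Ifitm1, an interferon-induced membrane protein. Igfbp6 stood at 235, 488 and 394 CPM in Il1b+ and 4.29, 13.8 and 14.99 CPM in Il1b-0 neutrophils, a mean log2 ratio of 4.57. Ifitm1 stood at 3838, 7391 and 5338 CPM against 146, 528 and 452 CPM, a log2 ratio of 4.004. Saa3 was lower in pool 1 than in the other pools in Il1b+ cells, with 32.5, 439 and 373 CPM against 0.677, 4.85 and 7.85 CPM. The others of the 15 were Steap4, Pf4, Gm5150, Fgl2, Jaml, Prr5l, Socs3, Gm2a, Wfdc17, Junb and Tpd52. Socs3, a feedback inhibitor of cytokine signaling, stood at 91.9, 211 and 153 CPM against 2.82, 6.94 and 9.95 CPM. Pf4 had a log2 ratio of 4.53, which was 1.15 with the limits on depth and S100 share. The other 14 genes then had log2 ratios from 4.03 (Wfdc17) to 4.999 (Igfbp6).

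**Figure D2:**
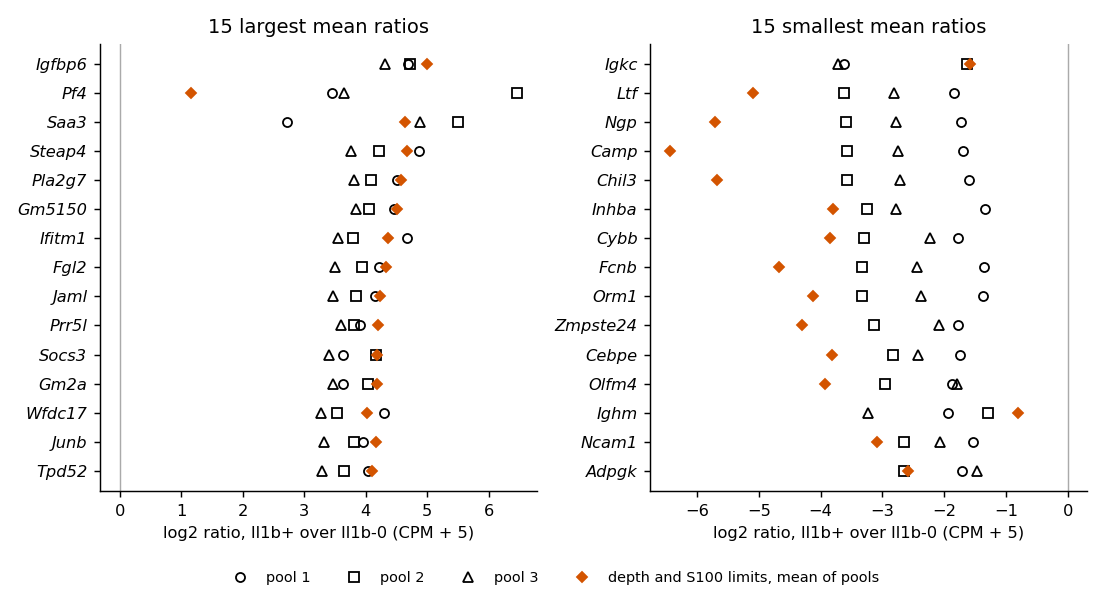
Log2 ratios of CPM + 5 in Il1b+ over Il1b-0 neutrophils for 15 genes at the top and 15 at the bottom of the mean ratios, gate genes left out. Open symbols are pools 1 to 3, and filled diamonds are the mean over pools after Il1b+ cells above 5000 UMIs and Il1b-0 cells with under 5% S100a8 and S100a9 counts were left out, which moves Pf4 from 4.53 to 1.15 and Camp from -2.68 to -6.44.

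Of the 15 genes with the smallest ratio, Ltf, Ngp, Camp, Chil3, Fcnb, Orm1 and Olfm4 encode granule or secreted proteins of maturing neutrophils, Cybb the catalytic subunit of the phagocyte oxidase and Cebpe a transcription factor of the specific granule stage. Camp stood at 11920, 3521 and 3786 CPM in Il1b+ against 38800, 42240 and 25560 CPM in Il1b-0 neutrophils. In Il1b+ cells of at most 5000 UMIs Camp stood at 852, 269 and 554 CPM and Ngp, another granule protein, at 1140, 319 and 784 CPM, so the deep cells held most of the Camp and Ngp transcripts of the class. The 29 secondary and tertiary granule genes together summed to 536, 339 and 319 UMIs per 10000 in the deep cells of pools 1, 2 and 3 and 169, 146 and 167 in the others, and the 11 primary granule genes to 59.5, 41.1 and 38.2 and 58.2, 48.8 and 50.4. The medians per cell for the 29 genes were 993, 25.4 and 200 in the deep cells against 129, 129 and 126 in the others. In pool 2 the median thus ran the other way, so some of the deep cells carried the sum. The immunoglobulin genes Igkc and Ighm, transcripts of B-lineage cells, had log2 ratios of -2.99 and -2.15. Their direction turned, to 0.87 and 0.99, when both classes were limited to at most 5000 UMIs. Inhba, Zmpste24, Ncam1 and Adpgk completed the 15.

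Read against the 10.5% of all genes that were more than 2-fold higher, several lists had larger shares. Of 48 late neutrophil genes measured 34 were more than 2-fold higher in all pools and 0 more than 2-fold lower, with a median log2 ratio of 1.79 against 0.10 over all genes. In the IL-1 pathway 11 of 20 genes were higher. Among them were the sensors Nlrp3 (65.02, 75.6 and 66.1 against 2.88, 5.097 and 6.21 CPM) and Nlrp12, the decoy receptor Il1r2 (81.98, 143 and 124 against 11.2, 19.5 and 18.9 CPM) and the adaptor Myd88. Of 16 chemotaxis genes 11 were higher, including the chemokine Ccl6, the receptors Cxcr2 and Cxcr1 and the selectin ligand Selplg. Interferon response genes were higher in 13 of 20, such as Slfn5, Rtp4 and Isg15, and immediate early genes in 14 of 19, such as Junb, Socs3, Dusp1 and Fos. Of 17 genes linked to suppressor cells 12 were higher, including Jaml and Cd84 (394, 592 and 535 against 36.4, 70.5 and 63.8 CPM), and 1, Cybb, was lower. When both classes were limited to at most 5000 UMIs, 19 of the 48 late neutrophil genes were higher and 1, Ly6g, was lower, where 6.52% of all genes were higher and 3.89% lower. The counts of higher genes then were 7 of 20 for the IL-1 pathway, 7 of 16 for chemotaxis and 9 of 20 for interferon response. They were 11 of 19 for immediate early and 9 of 17 for suppressor-linked genes. With the limits on depth and S100 share, 38 of the 48 late neutrophil genes, 12 of the 20 IL-1 pathway genes, 17 of the 20 interferon response genes and 14 of the 19 immediate early genes were higher, read against 15.1% of all genes. These lists overlap in genes such as Wfdc17 and Junb.

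Secondary and tertiary granule genes were divided, with 12 of 27 more than 2-fold lower and 2, Mmp9 and Adam8, higher against backgrounds of 1.38% and 10.5%. Mmp9, the gelatinase of late-forming granules, stood at 1098, 1695 and 1669 CPM in Il1b+ against 326, 640 and 520 CPM in Il1b-0 neutrophils. Of 26 proliferation genes 0 were more than 2-fold higher and 5 were lower in all pools, and 23 were lower with the limits on depth and S100 share, where 9.66% of all genes were lower. With both classes limited to at most 5000 UMIs 8 of the 26 were lower, where 3.89% of all genes were lower. Among 18 genes of pyrimidine metabolism, the pathway that brequinar acts on, 2 were higher, the uridine phosphorylase Upp1 and the ectonucleotidase Entpd1. The ribonucleotide reductase subunit Rrm2 was lower. Over all genes 10.5% were higher and 1.38% lower, so the higher count was near that of all genes. With the limits on depth and S100 share 3 of the 18 were higher and 5 lower, against 15.1% and 9.66% of all genes. With both classes limited to at most 5000 UMIs 2 were higher and 2 lower, against 6.52% and 3.89%. Upp1 stood at 73.5, 141 and 148 CPM against 10.9, 23.7 and 23.1 CPM. Umps, the enzyme after dihydroorotate dehydrogenase, stood at 22.6, 13.4 and 29.4 CPM against 27.3, 15.8 and 35.5 CPM. Of 24 genes of the unfolded protein response 3 were higher, against 10.5% of all genes. Of 81 ribosomal protein genes 0 were higher or lower by more than 2-fold in all pools. With the limits on depth and S100 share 25 of the 81 ribosomal protein genes were lower and their median log2 ratio was -0.93. This decrease was absent when both classes were limited to at most 5000 UMIs, with 0 of the 81 lower and a median log2 ratio of 0.01.

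The 5 marker genes lie on 4 chromosomes. On the GRCm38 build with GENCODE M21 annotation, Il1b spans chr2:129364570-129371139 on the minus strand. Wfdc17 spans chr11:83703991-83706268, Steap4 chr5:7960457-7982213, Stfa2l1 chr16:36156811-36161953 and Cstdc4 chr16:36184212-36188111, all on the plus strand. Stfa2l1 and Cstdc4 belong to the stefin cluster of chromosome 16, which also holds Stfa1, Stfa2, Stfa3, Cstdc5 and Cstdc6. These paralogs share sequence, so the division of reads among them is uncertain. Because Stfa2l1 and Cstdc4 are neighbours that both mark the class, their promoters are shown with that of Il1b, as the 150 bases before the annotated start in RefSeq (GRCm38.p6), 5′ to 3′ on the strand of the gene. The windows are chr16:36156661-36156810 for Stfa2l1, chr16:36184062-36184211 for Cstdc4 and chr2:129371140-129371289, minus strand, for Il1b. Capitals mark the longest run that the stefin promoters share and, in Il1b, the letters TATAAA.
Stfa2l1: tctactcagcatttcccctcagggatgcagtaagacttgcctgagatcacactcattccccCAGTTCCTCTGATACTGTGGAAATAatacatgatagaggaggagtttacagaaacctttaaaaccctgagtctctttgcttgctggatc
Cstdc4: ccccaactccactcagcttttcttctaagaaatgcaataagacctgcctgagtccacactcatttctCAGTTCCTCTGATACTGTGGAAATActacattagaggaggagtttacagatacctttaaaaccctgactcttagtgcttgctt
Il1b: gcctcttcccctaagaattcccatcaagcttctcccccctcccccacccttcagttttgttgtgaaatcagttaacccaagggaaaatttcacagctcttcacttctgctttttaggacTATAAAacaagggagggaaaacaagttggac
The Stfa2l1 and Cstdc4 windows aligned with 124 identical positions, 19 mismatches and 14 gaps (79.0% of aligned columns), and the shared run is 25 bases long. TATAAA on either strand occurs in 12.3% of 32536 mouse promoter windows of 250 bases, so the match in Il1b is given as a description. It begins 31 bases before the annotated start, and whether it acts as a site was not tested.

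The Il1b+ neutrophils were not uniform in the S100 genes that define the gate. Among the 1255 with at most 5000 UMIs, S100a8 and S100a9 made up under 5% of UMIs in 190 and 5% or more in 1065. This division was made after values were seen and carries no test. In the low-S100 cells several genes of mature neutrophils were low. Retnlg stood at 408, 810 and 677 CPM against 14980, 13520 and 16310 CPM in the others, and Ly6g at 0, 23.8 and 38.1 CPM against 269, 241 and 476 CPM. Prok2, a chemokine-like peptide, stood at 19.4, 23.8 and 38.1 CPM against 356, 443 and 514 CPM. Csf1, the macrophage growth factor, was higher, at 331, 167 and 543 CPM against 98.4, 85.4 and 76.1 CPM, as was Pmaip1, a pro-apoptotic protein, at 194, 119 and 229 CPM against 30.3, 23.97 and 17.3 CPM. Steap4 was alike in both, at 1264, 1251 and 1325 against 1210, 1122 and 1148 CPM. The name neutrophil therefore rests on fewer markers in these 190 cells. By mouse the low-S100 share was 0%, 16.7% and 0% in NTB, 18.9%, 11.3% and 16.6% in Veh and 23.9%, 7.5% and 14.1% in BRQ mice, where the NTB mice had only 2, 12 and 9 such shallow Il1b+ cells.

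Il1b+ neutrophils were rare in NTB mice and more frequent in each mouse of both tumor-bearing groups. By pool (1, 2, 3), the assigned Il1b+ cells were 2, 15 and 12 for NTB mice, 102, 54 and 144 for Veh mice and 76, 44 and 104 for BRQ mice. As a share of gated neutrophils they were 2.13%, 3.94% and 1.34% in NTB, 26.98%, 49.5% and 42.5% in Veh and 19.6%, 15.3% and 28.8% in BRQ mice. The NTB mice did not overlap with either tumor-bearing group, while the highest BRQ mouse lay above the lowest Veh mouse. Exact 95% binomial (Clopper-Pearson) intervals, which cover counting error only, reached from 0.696% to 2.34% for the NTB mouse of pool 3 and from 39.8% to 59.3% for the Veh mouse of pool 2.

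Over mice, Veh exceeded NTB by 37.2 percentage points of gated neutrophils (39.7% ± 11.5 against 2.47% ± 1.33, SD, n = 3 each, exact permutation p = 0.1, adjusted over 3 comparisons 0.15). BRQ exceeded NTB by 18.8 points (21.2% ± 6.91, n = 3, exact permutation p = 0.1, adjusted 0.15). The BRQ minus Veh difference was -18.4 points (n = 3 each, exact permutation p = 0.2, adjusted 0.2), with Veh above BRQ in 3 of 3 pools. When a cell was assigned only if its highest tag was at least 3 times the next, this difference turned to 2.51 points. A 2-sided exact test of 3 against 3 mice cannot go below 0.1, so none could pass 0.05, and Veh and BRQ share the NTB mice as reference. Of all assigned cells the class made up 0.361%, 1.15% and 0.4904% in NTB, 3.67%, 14.1% and 11.4% in Veh and 2.96%, 1.896% and 4.44% in BRQ mice. These differences were 9.08 points for Veh minus NTB (exact permutation p = 0.1), 2.43 for BRQ minus NTB (p = 0.1) and -6.65 for BRQ minus Veh (p = 0.2). Gated neutrophils as a whole were 16.97%, 29.2% and 36.5% of NTB cells, 13.6%, 28.5% and 26.9% of Veh cells and 15.1%, 12.4% and 15.4% of BRQ cells, so the Il1b+ share was higher in tumor-bearing mice while the mean share of gated neutrophils was not. That last comparison turned with depth, since Veh exceeded NTB by 18.0 points when cells were limited to at most 5000 UMIs.

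**Figure D3:**
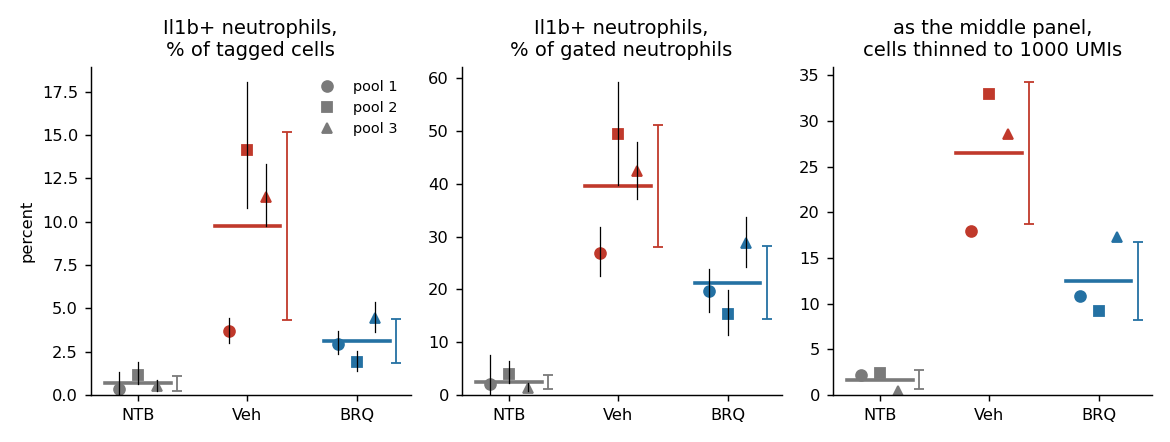
Il1b+ neutrophils as percent of the assigned cells of a mouse, of its gated neutrophils, and of its gated neutrophils after each cell was thinned to 1000 UMIs. Each symbol is a mouse with its shape by pool, thin lines are exact 95% binomial intervals, horizontal bars are group means and brackets are SDs over 3 mice. NTB mice stay at or below 3.94% of gated neutrophils and Veh mice reach 49.5%.

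The order of the groups was the same at equal depth per cell. After gated neutrophils were thinned to 1000 UMIs and shallower cells were left out (0 to 21 per mouse), cells with at least 2 Il1b UMIs were 2.13%, 2.38% and 0.449% in NTB, 17.9%, 33% and 28.6% in Veh and 10.8%, 9.22% and 17.3% in BRQ mice. Here Veh and BRQ did not overlap. B-lineage cells, which should lack Il1b, held 2 or more Il1b UMIs in 0%, 0% and 0% of cells in pools 1, 2 and 3, and erythroid cells in 0%, 0% and 0.166%. A count of 0 in the 67, 67 and 81 thinned B-lineage cells allows shares of up to 4.48%, 4.48% and 3.704%. Without thinning the shares were 0%, 1.49% and 0% in B-lineage and 0.882%, 0.637% and 1.83% in erythroid cells, with median depths of 6861 to 8268 and 18320 to 20550 UMIs against 3876 to 5484 UMIs in gated neutrophils. The unthinned share of the NTB mouse of pool 3 (1.34%) lay below that of the deeper erythroid cells of its pool, while at equal depth it lay above it, at 0.449% (4 of 890 cells) against 0.166% (1 of 601 cells). The depth of Il1b+ cells themselves was 1444, 1406 and 1535 median UMIs in Veh and 1259, 1598 and 1964 in BRQ mice, a mean log2 difference of 0.11 (BRQ minus Veh, exact permutation p = 0.7, n = 3 each). For NTB mice it was 1614 in pool 2 and 2796 in pool 3. Median mitochondrial shares of Il1b+ cells also moved with the groups, at 1.25%, 4.45% and 3.304% in NTB, 1.03%, 1.42% and 1.6% in Veh and 0.825%, 1.26% and 1.39% in BRQ mice, and their part in the shares was not tested.

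Tag levels of all cells, called or not, gave the same order of NTB and Veh. The NTB tag, each tag scaled to its pool, was the highest in 8.71%, 4.59% and 5.71% of all Il1b+ neutrophils against 59.3%, 46.2% and 55.2% of Il1b-0 neutrophils. The Veh tag was the highest in 50.6%, 75.8% and 55.9% against 16.6%, 21.2% and 20.4%. The BRQ tag was the highest in 40.7%, 19.6% and 38.4% against 24.1%, 32.6% and 24.5%, so it was more frequent among Il1b+ cells in pools 1 and 3 and less frequent in pool 2. The pools differed in how many Il1b+ cells stayed without a call, 18.3%, 72.2% and 43.3%, so the counts per mouse depend on the pool. For Il1b-0 neutrophils these shares were 69.9%, 64.5% and 34.9%, so the shares of Il1b+ cells among gated neutrophils of a mouse depend on the calls too. In pool 1 the NTB tag was the highest in 75.9% of the Il1b-0 neutrophils without a call.

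Counts summed over all gated neutrophils of a mouse showed the genes of the class higher in tumor-bearing mice. This comparison was added after the data were seen, and in such sums fewer cells of a type and less RNA per cell cannot be told apart. Between Veh and NTB 1069 of 9063 genes passed (11.8%, edgeR quasi-likelihood test, Benjamini-Hochberg adjusted p under 0.05), 740 higher (8.17%) and 329 lower (3.63%). The split was nearer to even with other depth limits, with 1016 higher and 984 lower at most 5000 UMIs and 1347 higher and 1221 lower when the limits of 500 and 7500 were set on UMIs. Without the Veh mouse of pool 3, 373 genes passed. When a cell was assigned only if its highest tag was at least 3 times the next, 103 passed, all of them among the 1069. CPM values of these fits are scaled by TMM factors. Il1b chose the class, so it is given as a description with no test. It stood at 13.1, 42.6 and 7.22 CPM in NTB, 283, 715 and 714 CPM in Veh and 141, 134 and 278 CPM in BRQ mice, without overlap of NTB with the others. Wfdc17 stood at 33.97, 272 and 129 CPM in NTB, 2887, 6794 and 9594 CPM in Veh and 891, 933 and 3421 CPM in BRQ mice, and rose in Veh over NTB by 5.44 ± 0.75 (log2 fold change ± SE, edgeR adjusted p = 0.000448). Steap4 stood at 14.4, 17.4 and 8.56 CPM in NTB, 220, 520 and 573 CPM in Veh and 99.6, 99 and 366 CPM in BRQ mice, and rose by 5.11 ± 0.59. Stfa2l1 rose by 4.88 ± 0.50, Cstdc4 by 4.23 ± 0.50 and Cxcr2 by 3.50 ± 0.40, so the 4 markers other than Il1b passed. These markers were chosen with results of the same data known. The sums also hold the Il1b+ cells, whose share was higher in Veh mice. That the markers passed is therefore no independent support.

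**Figure D4:**
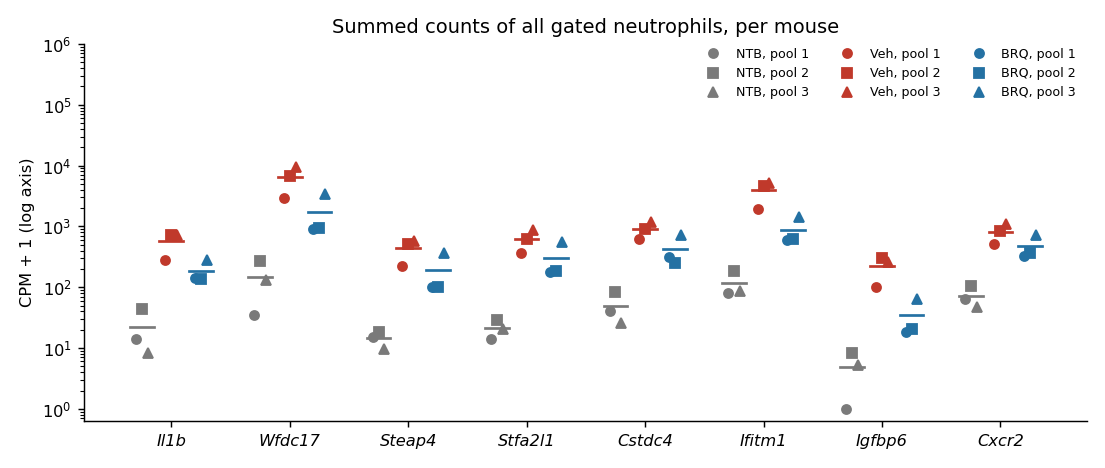
CPM + 1 on a log axis for 8 genes in the summed counts of all gated neutrophils, with 1 symbol per mouse, color by group, shape by pool and bars at the group means. For Il1b the NTB mice reach at most 42.6 CPM and the Veh and BRQ mice lie at or above 134 CPM.

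Among the genes that rose most in Veh over NTB were Saa3 (6.04 ± 1.31), Igfbp6 (5.52 ± 0.62), Socs3 (5.28 ± 0.66), Ifitm1 (5.06 ± 0.50) and Prr5l (5.06 ± 0.60), all of which were also among the 15 genes with the largest ratio of Il1b+ to Il1b-0 cells. This overlap is partly built in, because the sums hold the Il1b+ cells and the NTB tag was rare among Il1b+ cells. Nothing about the class is drawn from it. Cxcr1, a second receptor for neutrophil chemokines, was listed at 0, 0 and 0.401 CPM in NTB and at 18.6, 26.1 and 52.8 CPM in Veh mice (edgeR adjusted p = 0.000127). Gm19696 and the signal-regulatory protein gene Sirpb1a, with Wfdc17 and Steap4, completed the 10. The genes that fell most were Lpl, a lipase (30.1, 47.5 and 40.1 CPM in NTB, 10.6, 14.5 and 2.93 CPM in Veh), Rasl11b, Klrb1f, Nucb2, Cldn1, Ncam1, Fmnl2, Olfm4, Smim6 and Slfn9, with log2 fold changes from -2.23 to -1.66.

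By list, 40 of 49 late neutrophil genes rose and 0 fell between Veh and NTB, as did 11 of 17 chemotaxis genes and 8 of 22 IL-1 pathway genes, against 8.17% of all genes. Genes that chose the class were left out of the lists. The IL-1 pathway genes were Il1r2 (3.13 ± 0.47), Il1rn (1.39 ± 0.37), Nlrp3 (3.61 ± 0.55), Nlrp12, Casp4, Myd88, Il1rap and Txnip. Of 18 suppressor-linked genes 13 rose, such as Cd84 (2.71 ± 0.37), and Cybb fell. Interferon response genes rose in 13 of 26 and immediate early genes in 13 of 19. Secondary and tertiary granule genes were divided, with 5 of 27 higher (Mmp9, Mmp8, Adam8, Ceacam10 and Hp) and 7 lower, including Camp (-1.50 ± 0.45) and Ltf (-1.03 ± 0.28). Of 26 proliferation genes 10 fell, Mki67 by 1.05 on the log2 scale, and 0 rose. In pyrimidine metabolism Upp1 (3.995 ± 0.46) and Entpd1 rose, and Tk1 and Rrm2 fell, of 21 tested. Over all genes 8.17% rose and 3.63% fell. Of 29 genes of the unfolded protein response 1, Ddit3, rose. The monocyte genes Csf1r (3.56 ± 0.47) and Ccr2 rose and Ly6c2 fell, of 8 tested, and Kit rose by 1.42 ± 0.27. The median depth of Il1b-0 neutrophils moved with the groups too, with 8022, 5988 and 6901 UMIs in NTB against 4490, 2797 and 2755 UMIs in Veh mice, and its part in these changes was not tested.

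Between BRQ and NTB 393 genes passed (4.34%), 347 higher (3.83%) and 46 lower (0.508%). At most 5000 UMIs the split was 992 higher and 860 lower, and with limits on UMIs 1287 higher and 943 lower. With pool as a replicate block the count was 849, and without the NTB mouse of pool 3 it was 103, without the NTB mouse of pool 1 241 and without the BRQ mouse of pool 3 180. When the highest tag had to be at least 3 times the next, 1 gene passed. Steap4 rose by 3.90 ± 0.57, Stfa2l1 by 3.83 ± 0.48, Wfdc17 by 3.56 ± 0.69 and Cstdc4 by 3.16 ± 0.48. The leading genes were Saa3 (5.33 ± 1.30), the apolipoprotein gene Apoc2 (5.14 ± 0.69), the stefins Stfa2 (4.31 ± 0.63) and Stfa3, Socs3, Cd300ld, Steap4, Prok2 (3.90 ± 0.63), Stfa2l1 and Asprv1. Lpl and Vcam1, an adhesion molecule, fell most, followed by Slc39a11, Hvcn1, Igf2r, Ulbp1, Mfsd13a and 3 histone genes. Late neutrophil genes rose in 37 of 49 and 1, Thbs1, fell, while IL-1 pathway genes rose in 4 of 22, chemotaxis genes in 8 of 17 and interferon genes in 15 of 26. Of the 26 proliferation genes 0 passed. This comparison shares its NTB mice with that of Veh and NTB.

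Between BRQ and Veh 0 of 9063 genes passed in all gated neutrophils (0.0%, edgeR), while 533 had an unadjusted p under 0.05, DESeq2 called 3 and the fit with pool as a replicate block called 5. Wfdc17 had a log2 difference of -1.88 ± 0.64 (edgeR adjusted p = 0.814). The smallest p went to Gpr141, Ly6c1, Ly6c2, Chil3 and Ifrd1 on the higher side and Cxcr1, Igfbp6, Ifitm1, Kit and Apoe on the lower side. When cells were limited to at most 5000 UMIs 265 genes passed, 207 higher and 58 lower in BRQ. Among the higher genes, given as log2 differences, were Ly6c2 (1.76), Ifrd1 (1.76), Gpr141 (1.66), Ly6c1 (1.63) and Chil3 (1.57). Among the lower genes were Kit (-2.33), Igfbp6 (-2.01), Ifitm1 (-1.56) and Wfdc17 (-1.31). With the limits of 500 and 7500 set on UMIs in place of genes 176 passed, 129 higher and 47 lower in BRQ. The call for BRQ against Veh thus depends on the depth of the cells kept, and the limit of 5000 UMIs was set after the data were seen.

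Within Il1b+ neutrophils the count of genes that passed between groups depended on how cells were assigned and filtered. With the hashtag calls and filters used throughout, of 3685 genes 0 passed between Veh and NTB (0.0%), BRQ and Veh (0.0%) or BRQ and NTB (0.0%) at an edgeR adjusted p under 0.05. At an unadjusted p under 0.05 there were 845, 98 and 430 genes, and DESeq2 called 29, 0 and 0. The NTB mouse of pool 1 had only 2 Il1b+ cells and was left out of these fits, so NTB rested on 27 cells of 2 mice. When a cell was assigned if its highest tag was at least 1.5 times the next, the 3 NTB mice had 14, 13 and 19 Il1b+ cells, and 1082 of 4140 genes passed between Veh and NTB, 26 between BRQ and NTB and 0 between BRQ and Veh. Between Veh and NTB 333 genes passed with 1 Il1b UMI allowed and 214 with no filter on low counts. Without the NTB mouse of pool 2 as well, 623 genes passed between Veh and NTB and 48 between BRQ and NTB, with the lone NTB mouse assumed to vary like the others, and without the BRQ mouse of pool 3 24 passed between Veh and NTB. Megakaryocyte genes summed to 6.9, 2.81 and 132 UMIs per 10000 in the Il1b+ cells of the NTB mice of pools 1, 2 and 3, 3.75, 4.29 and 5.19 in Veh and 45.7, 84.9 and 5.04 in BRQ mice. Their part in the comparisons was not tested.

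Among genes with a lower level in Veh than NTB, the smallest p went to Slc14a1, Rabgap1l, Sptbn1, Itga2b and Nedd4. Itga2b, the platelet integrin, stood at 26.9 and 627 CPM in the NTB mice of pools 2 and 3, 12.4, 0 and 23.6 CPM in Veh and 140, 121 and 11.8 CPM in BRQ mice, so the level of NTB rested on pool 3. On the higher side they were Cd300c2, Cxcr1, Por, Dedd2 and Csf1. Cd300c2, an activating receptor of myeloid cells, stood at 26.9 and 16.5 CPM in NTB, 141, 243 and 271 CPM in Veh and 135, 137 and 142 CPM in BRQ mice without overlap of NTB with the others (edgeR adjusted p = 0.106 for Veh against NTB). For BRQ against NTB they were Stx11, Cd300c2, Tnfrsf1a, Fgl2 and Por on the higher side and Slc25a1, Msi2, Sptbn1, Ndufb6 and Ifi203 on the lower side (edgeR adjusted p = 0.361). Fgl2, a fibrinogen-like protein with immunosuppressive activity, stood at 162 and 24.8 CPM in NTB and 438, 323 and 398 CPM in BRQ mice. For BRQ against Veh they were Pf4, Slc14a1, Ifrd1, F2r and Rabgap1l on the higher side and Cxcr1, Igfbp6, Fcnb, Atp6v0a1 and Eloa on the lower side (edgeR adjusted p = 0.999).

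Limited to Il1b+ cells of at most 5000 UMIs, 5 of 2584 genes (0.193%) passed between BRQ and Veh, each with an edgeR adjusted p = 0.0454. This limit was set after the data were seen. Ifitm1 stood at 8288, 11200 and 9639 CPM in Veh and 6505, 6008 and 3958 CPM in BRQ mice, with a log2 fold change of -0.84 ± 0.16. Igfbp6 stood at 554, 694 and 737 CPM against 288, 379 and 368 CPM (-0.93 ± 0.19), and Ptma, the chromatin-associated prothymosin alpha, at 842, 992 and 867 CPM against 536, 538 and 483 CPM (-0.80 ± 0.17). These 3 genes fell in BRQ. Ifi27, an interferon-induced gene, rose from 64.8, 66.1 and 47.7 CPM to 129, 158 and 202 CPM (1.59 ± 0.34), and Mgst1, a microsomal glutathione transferase, from 273, 242 and 213 CPM to 368, 395 and 777 CPM (1.20 ± 0.26). None of the 5 overlapped between the groups, but genes chosen for a small p seldom overlap, so this adds no support. Kit stood at 180, 176 and 200 CPM in Veh and 49.7, 31.6 and 96.5 CPM in BRQ mice but did not pass (-1.36 ± 0.33). The markers of the class did not pass either, with log2 differences of -0.53 for Wfdc17, 0.04 for Steap4, -0.33 for Stfa2l1 and -0.11 for Cstdc4. Too few NTB mice had 10 such cells for a test against NTB. Steap4 stood at 1150, 1100 and 1036 CPM in NTB, 1252, 1289 and 1292 CPM in Veh and 1311, 1107 and 1462 CPM in BRQ mice at this limit.

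For several genes of the class the log2 change from NTB to Veh was smaller in Il1b+ than in Il1b-0 neutrophils. The classes were split on Il1b, whose own level differed between the groups, so the split is not independent of the groups and these differences are a description from which nothing is supported. In an edgeR interaction of cell class and group, 20 of 5772 genes passed for Veh against NTB (0.347%), 17 with a more negative change in Il1b+ cells and 3 with a more positive change. In Il1b-0 neutrophils Wfdc17 stood at 27.4, 47.7 and 66.4 CPM in NTB, 1723, 3260 and 5308 CPM in Veh and 353, 477 and 2362 CPM in BRQ mice, with no overlap of NTB with the others. In Il1b+ neutrophils Wfdc17 stood at 7989 and 1372 CPM in the NTB mice of pools 2 and 3, 6209, 13640 and 13630 CPM in Veh and 4817, 5519 and 7926 CPM in BRQ mice. In Il1b+ cells of at most 5000 UMIs Wfdc17 stood at 920, 18820 and 7205 CPM in NTB (2, 12 and 9 cells), 11380, 14600 and 16230 CPM in Veh and 9494, 9944 and 9994 CPM in BRQ mice, so the NTB mice lay both below and above the Veh mice. The difference of the log2 changes over cells of all depths was -3.90 ± 0.71. Steap4 (-3.63 ± 0.64), Stfa2l1 (-2.47 ± 0.49), Prr5l (-3.73 ± 0.74), Gm5150 (-2.75 ± 0.57) and the lectin Clec4d (-2.78 ± 0.60) passed in the same direction.

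**Figure D5:**
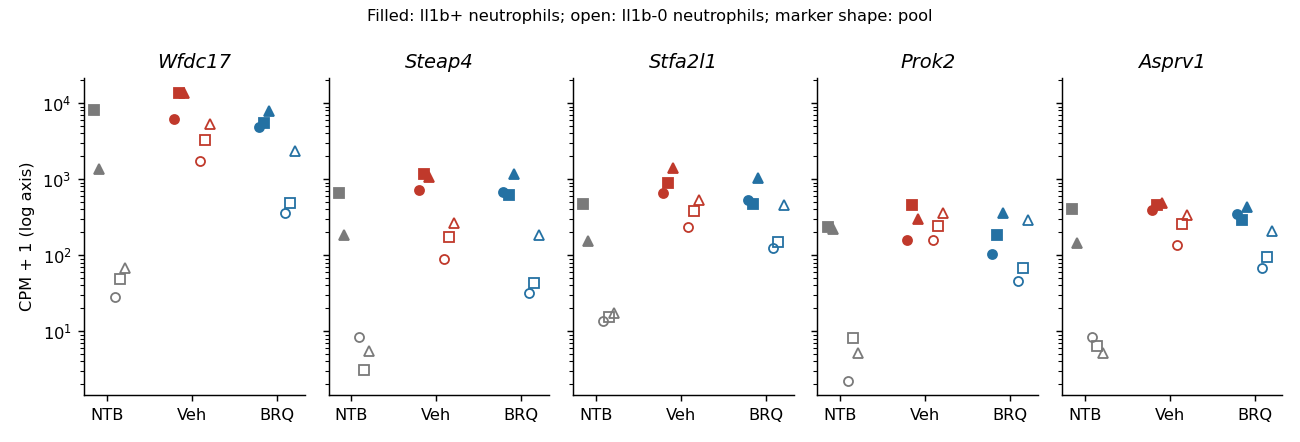
CPM + 1 on a log axis for 5 genes in Il1b+ neutrophils (filled) and Il1b-0 neutrophils (open), with 1 symbol per mouse and shape by pool. The NTB mouse of pool 1 is left out of the Il1b+ class for its 2 cells. Wfdc17 in Il1b-0 cells runs from 27.4 to 66.4 CPM in NTB and from 1723 to 5308 CPM in Veh mice, while Il1b+ cells lie between 1372 and 13640 CPM.

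Prok2 and Asprv1, an aspartic protease gene, passed for Veh and for BRQ, each against NTB. Prok2 stood at 234 and 221 CPM in Il1b+ cells of NTB mice, 159, 459 and 295 CPM in Veh and 103, 185 and 355 CPM in BRQ mice, so the groups overlapped. In Il1b-0 cells it stood at 1.25, 7.11 and 4.23 CPM in NTB, 158, 243 and 362 CPM in Veh and 44.2, 66.8 and 286 CPM in BRQ mice, without overlap of NTB with the others. The differences of the log2 changes of Prok2 were -5.10 ± 0.54 for Veh and -4.34 ± 0.54 for BRQ, each against NTB, and those of Asprv1 were -4.38 ± 0.54 and -3.69 ± 0.54. These 2 genes were those that passed for BRQ against NTB (0.0347%). For BRQ against Veh 0 of 5772 passed (0.0%, edgeR), with 143 at an unadjusted p under 0.05. Some of the 20 rested on 1 mouse. Vwf, Cavin2, Slc14a1 and Itga2b stood at 267, 473, 358 and 579 CPM in the Il1b+ cells of the NTB mouse of pool 3 and at 0 to 23.4 CPM in that of pool 2. CPM values by class and mouse are not scaled by TMM factors, unlike the 627 and 26.9 CPM given for Itga2b in the fit of Il1b+ cells. In Il1b-0 cells of the NTB mice of pools 1, 2 and 3 Igkc stood at 8938, 26.3 and 2748 CPM and Ighm at 29.9, 45.2 and 1097 CPM, and the mouse of pool 1 was not in the fit, so Ighm was high in 1 mouse and Igkc in 1 of the mice fitted. The count of 20 was 6 without the cells that Scrublet marked, 275 with tags called at a ratio of 1.5 and 129 with no filter on low counts. It was 3 without the Veh mouse of pool 1, 8 without the NTB mouse of pool 3, 37 without the BRQ mouse of pool 2, 45 without the Veh mouse of pool 2 and 70 without the BRQ mouse of pool 3.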

How the data were processed

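Marrow cells of 9 mice, in 3 hashtagged pools, were profiled by droplet single-cell RNA-seq. The authors deposited raw UMI counts per gene and cell barcode, made with Cell Ranger 6.0.0 on mm10 per the labels' processing notes, together with hashtag counts, gene identifiers, cell barcodes and the hashtag sequences. Cells were limited to 500 to 7500 detected genes. The study states these limits for transcripts, so limits on UMIs were an alternative, which changed many counts of genes. Hashtags were normalized by centered log ratio and called with HTODemux of Seurat 5.3.0 (quantile 0.99), and Scrublet in scanpy 1.11.5 marked doublets, which were kept.

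Counts were summed per mouse, mice with under 10 Il1b+ cells were left out of the fits, and groups were compared with the quasi-likelihood test of edgeR 4.0.16 (TMM factors, its filter on low counts, Benjamini-Hochberg adjusted p under 0.05, limma 3.58.1, R 4.3.3). DESeq2 1.42.0 was an alternative, and adjusted p-values it gave as NA stayed NA. A fit with cell class, group and mouse tested whether changes differed between Il1b+ and Il1b-0 neutrophils. Shares were compared by exact 2-sided permutation over mice, with p adjusted over the 3 comparisons of a measure. Tables were handled in Python 3.11.15 with numpy 2.4.6, pandas 2.3.3 and scipy 1.17.1, and figures in matplotlib 3.10.9. The fits were tested on simulated data with 200 changed genes.

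The members and the gene lists were chosen with earlier results of these data known. Named genes were the 5 markers and, in each group comparison, called genes at either end of the fold changes, 10 at the top and 10 at the bottom, among those with a mean of at least 20 CPM and groups that did not overlap, gate genes left out. Where under 5 genes were called, the 5 with the smallest p in each direction were named as not called. Against Il1b-0 neutrophils they were the 15 largest and 15 smallest mean ratios among genes of at least 100 CPM in either class. Other genes named are members of the lists, or were chosen after their values were seen. The pool numbers pair mice because, per the labels, a pool is a shared lane. Deviations of mice in the same pool correlated between -0.47 and 0.35 in Il1b+ neutrophils and between -0.09 and 0.36 in all gated neutrophils. Each mouse is a separate animal. Of 32285 gene identifiers 32158 were found in GENCODE M21. The authors' readme was not used.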

Additional observations from a re-analysis of the deposited data

Results flagged for a closer look

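The change from NTB to Veh differed between Il1b+ and Il1b-0 neutrophils for 20 genes (edgeR interaction test, adjusted p under 0.05), given as the log2 change in Il1b+ minus that in Il1b-0 cells. The classes were split on Il1b, whose level differed between the groups, so these values are a description. Genes of neutrophils, not all particular to the class, were Prok2 (-5.10), Asprv1 (-4.38), Wfdc17 (-3.90), Prr5l (-3.73), Steap4 (-3.63), Clec4d (-2.78), Gm5150 (-2.75) and Stfa2l1 (-2.47). By pool, Prok2 stood at 137, 295 and 344 CPM in Il1b+ cells and at 247, 461 and 426 CPM in neutrophils with 1 Il1b UMI. With both classes limited to at most 5000 UMIs, its mean log2 ratio of Il1b+ over Il1b-0 cells was 0.52. Genes of megakaryocytes and progenitors or of other function were Vwf (-8.97), Slc14a1 (-8.09), Cavin2 (-7.37), Itga2b (-7.19), Ctla2a (-6.20), Slc25a4 (-4.38), Rabgap1l (-3.63), Zfpm1 (-3.08) and Fabp5 (-2.68). Igkc (5.62), Ighm (4.29) and Tnfsf13b (9.71) had a more positive change in Il1b+ cells. Tnfsf13b was at 0 in the Il1b+ cells of both NTB mice tested, and Vwf, Cavin2 and Slc14a1 were at 0 in those of 2 Veh mice and of 1 NTB mouse, so their fitted differences depend on the prior count and are no bounds. For BRQ against NTB the 2 genes were Prok2 (-4.34) and Asprv1 (-3.69).

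Gated neutrophils without a hashtag call entered no comparison between groups. Of these, 19.5% were Il1b+ in pool 2 and 22.3% in pool 3, above the highest share of an NTB mouse (3.94% of gated neutrophils), while the share in pool 1 was 2.58%.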

How the results depend on the processing

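Shares of Il1b+ cells kept their direction for Veh against NTB and BRQ against NTB under all alternatives run. Few NTB cells and weak hashtags limit the fits, and the cause of the shifts below was not tested. Within Il1b+ neutrophils, Veh against NTB gave 214 genes with no filter on low counts, 1082 with tags called at a ratio of 1.5, 333 with 1 Il1b UMI allowed, 29 with DESeq2 and 0 to 623 without 1 mouse. BRQ against Veh gave 29 with no filter, 5 at most 5000 UMIs and 0 to 0 without 1 mouse. BRQ against NTB gave 10 with no filter, 26 at tag ratio 1.5, 14 with limits read as UMIs and 0 to 48 without 1 mouse. With pool as a replicate block all 3 gave 0.

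In all gated neutrophils, Veh against NTB gave 103 at tag ratio 3, 1988 at 1.5, 2568 with limits read as UMIs, 2000 at most 5000 UMIs, 1517 with pool as a replicate block and 373 to 1447 without 1 mouse. BRQ against Veh gave 5 with the replicate block, 99 with no filter, 176 with limits as UMIs, 265 at most 5000 UMIs, 3 with S100 genes at 5% of UMIs, 3 with DESeq2 and 0 to 4 without 1 mouse. BRQ against NTB gave 849 with the replicate block, 878 with no filter, 1 at tag ratio 3, 654 at 1.5, 2230 with limits as UMIs, 1852 at most 5000 UMIs, 635 with the S100 limit and 103 to 549 without 1 mouse.

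For changes that differ between classes, Veh against NTB gave 129 with no filter, 275 at tag ratio 1.5, 6 without Scrublet doublets and 3 to 70 without 1 mouse. BRQ against Veh gave 11, 6, 7 at most 5000 UMIs, 4 with the S100 limit and 0 to 12. BRQ against NTB gave 27 with no filter, 34 at tag ratio 1.5 and 1 to 10.

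Directions turned for gated neutrophils among cells, Veh minus NTB, to 3.02 points at tag ratio 3, 13.97 with limits as UMIs, 18.02 at most 5000 UMIs and -9.82 to 0.168 without 1 mouse, and for BRQ minus NTB to 2.34 and 6.73 under those depth settings. The BRQ minus Veh share of gated neutrophils turned to 2.51 at tag ratio 3. Log2 UMIs per Il1b+ cell turned for BRQ minus Veh (-0.042 to 0.278 without 1 mouse) and for BRQ minus NTB (0.00046 with limits as UMIs). Where 1 NTB mouse was left, it was assumed to vary like the other groups. Tag ratio 3 was not fitted in Il1b+ cells, since too few mice had 10 cells. NTB comparisons at 3 Il1b UMIs, at most 5000 UMIs or with the S100 limit were not tested, since too few NTB mice had 10 cells.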
